A study of Mus musculus with 16 samples.

Results

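The mitochondrial genome of the mouse encodes its own small set of transcripts, and their levels were followed here in neurons that had or had not passed through oxygen-glucose deprivation (OGD), with or without the antidepressant tianeptine (TIA). The members were all genes whose symbol starts with mt-. There were 37 of them among 53779 genes: 13 protein-coding genes, 2 rRNA genes and 22 tRNA genes, each listed with 1 isoform on the mitochondrial chromosome. RNA-seq covered 16 primary cortical neuron cultures prepared from wild-type mouse embryos at embryonic day 15, with 4 cultures in each of 4 groups. CONTROL-VEH received vehicle (DMSO; the labels call these cultures untreated) at 8 days in vitro and a sham exposure 24 h later, and CONTROL-TIA received 10 µM TIA with the same sham exposure. OGD-VEH received vehicle and OGD-TIA received 10 µM TIA before 3 h of OGD, an in vitro model of ischemia in which oxygen and glucose are withdrawn. RNA was collected 6 h after OGD in every case. The cultures are numbered from 1 to 16 across the groups. The paper calls the cultures of a group biological replicates, but whether they came from separate preparations is not stated. The p-values therefore measure the spread between these cultures only.

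The mitochondrial DNA is transcribed from both strands into long precursors. The tRNAs that lie between the coding genes are cut out, which releases the mRNAs and rRNAs. The mRNAs encode core subunits of the respiratory chain and of ATP synthase, and all other proteins of the organelle come from nuclear genes. Neurons depend on this machinery for most of their ATP, and OGD stops it by removing its substrates.

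The labels state 18 to 23 M aligned reads per library. The value that 1 read takes among low-expressed genes gave estimates of 19.7 to 25.6 M per culture, with a median of 23.2 M. Values are FPKM (fragments per kilobase of transcript, relative to library size), scaled between libraries. As these are levels of bulk cultures, fewer cells of a type and less RNA per cell cannot be told apart. The cultures carried the neuronal markers Rbfox3, Map2, Tubb3, Snap25, Syt1 and Stmn2. Summed over these 6 genes, the level was 2586 to 3106 FPKM in CONTROL-VEH, 2617 to 2754 in CONTROL-TIA, 1102 to 2325 in OGD-VEH and 1546 to 2639 in OGD-TIA. The 7 oligodendrocyte lineage markers ran the other way, from 171 to 206 FPKM in CONTROL-VEH and from 232 to 637 in OGD-VEH, and the 6 astrocyte markers from 453 to 717 and from 603 to 1530. In CONTROL-TIA and OGD-TIA, oligodendrocyte lineage sums ran from 152 to 189 and from 216 to 412 FPKM. Astrocyte sums ran from 394 to 509 in CONTROL-TIA and from 451 to 1122 in OGD-TIA, where culture 16 was the highest and the others at most 555. The 7 microglial and 4 endothelial markers summed to at most 3.03 and 1.35 FPKM, and no neuronal, astrocyte or oligodendrocyte lineage marker was at 0 in all cultures of a group. Culture 9 of OGD-VEH had the highest neuronal sum of its group (2325 FPKM, the others at most 1736), and culture 16 of OGD-TIA the lowest of its group (1546 FPKM, the others at least 2511). The main fold changes are also given without these cultures.

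7 of the 13 protein-coding genes have a near-identical copy in the nuclear genome, and this bears on every value below. The copies are 7 unprocessed pseudogenes in a stretch of 4663 bases on chromosome 1 (GRCm38, chr1:24611535-24616197, minus strand). They were found by aligning the GENCODE M21 transcripts, with at least 99% identity over at least 100 bases. mt-Co2, mt-Atp6, mt-Co3, mt-Nd4l and mt-Nd4 match their copies Gm28661, Gm10925, Gm28437, Gm10222 and Gm28439 without a mismatch over the aligned 681, 678, 783, 294 and 876 bases. Gm29216 matches the last 483 bases of mt-Co1 with 1 substitution, A1066T. Gm28438 matches 345 bases of mt-Nd3 with 1 substitution, T3C. Positions are counted from 1 at the 5′ end of the mitochondrial gene, and the base of the mitochondrial gene is given first. The windows around these substitutions are shown with the differing base in capitals, because they are the only aligned positions that separate gene from copy in these 2 pairs.
mt-Co1: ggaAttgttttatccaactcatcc
Gm29216: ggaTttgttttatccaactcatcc
mt-Nd3: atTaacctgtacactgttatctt
Gm28438: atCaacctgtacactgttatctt

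Reads were 50 bases long. A read that lies wholly in a shared stretch is the same in gene and copy, as the following 50-base examples show. The first covers positions 1067 to 1116 of mt-Co1, right after the substitution, and the second the first 50 positions of mt-Co2, from its start codon.
mt-Co1 and Gm29216: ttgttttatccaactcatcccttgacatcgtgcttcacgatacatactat
mt-Co2 and Gm28661: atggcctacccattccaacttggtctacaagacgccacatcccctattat

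The copies carried large values in the file. Gm29216 had the highest mean FPKM of all genes (24072), followed by Gm28661 (9683) and Gm10925 (9397). Among the 20 genes with the highest mean FPKM, 9 were mitochondrially encoded and 4 were such copies. Weighted by length, mt-Co1 held 47.2% ± 1.89 (SD, n = 16) of the signal of its pair, mt-Co2 31.9% ± 1.47, mt-Atp6 41.2% ± 3.17, mt-Co3 44.7% ± 0.582, mt-Nd3 51.3% ± 2.86, mt-Nd4l 61.3% ± 3.12 and mt-Nd4 84.8% ± 1.87. Reads wholly within a shared stretch cannot be assigned to gene or copy. Such a stretch covered 31.3% of mt-Co1, 63.6% of mt-Nd4 and nearly all of the other 5 genes, so their FPKM is uncertain. The fold changes that matter most are also given with the copy's signal added in proportion to length. The other 6 mRNAs (mt-Nd1, mt-Nd2, mt-Nd5, mt-Nd6, mt-Atp8 and mt-Cytb) and both rRNAs had no copy at this identity and length. Their most similar long matches were less alike, such as Gm13339 with 96.7% over 510 bases of mt-Nd2 and Gm4076 with 95.2% over 954 bases of mt-Nd5. The search covered annotated transcripts only.

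Neighbouring genes also share bases. mt-Atp8 and mt-Atp6 (MT:7766-7969 and MT:7927-8607) have the following 43 bases in common, in which the capitals mark the start codon of mt-Atp6. The same bases begin Gm10925.
mt-Atp8/mt-Atp6 overlap: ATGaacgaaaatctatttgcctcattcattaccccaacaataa

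Reads in such an overlap can be assigned to either gene, which makes mt-Atp8 and mt-Atp6 and likewise mt-Nd4l and mt-Nd4 less certain. mt-Nd5 (MT:11742-13565, plus strand) and mt-Nd6 (MT:13552-14070, minus strand) overlap on opposite strands. The library kit keeps the strand, but the setting used in counting is not given in the sources used here.

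**Figure D1:**
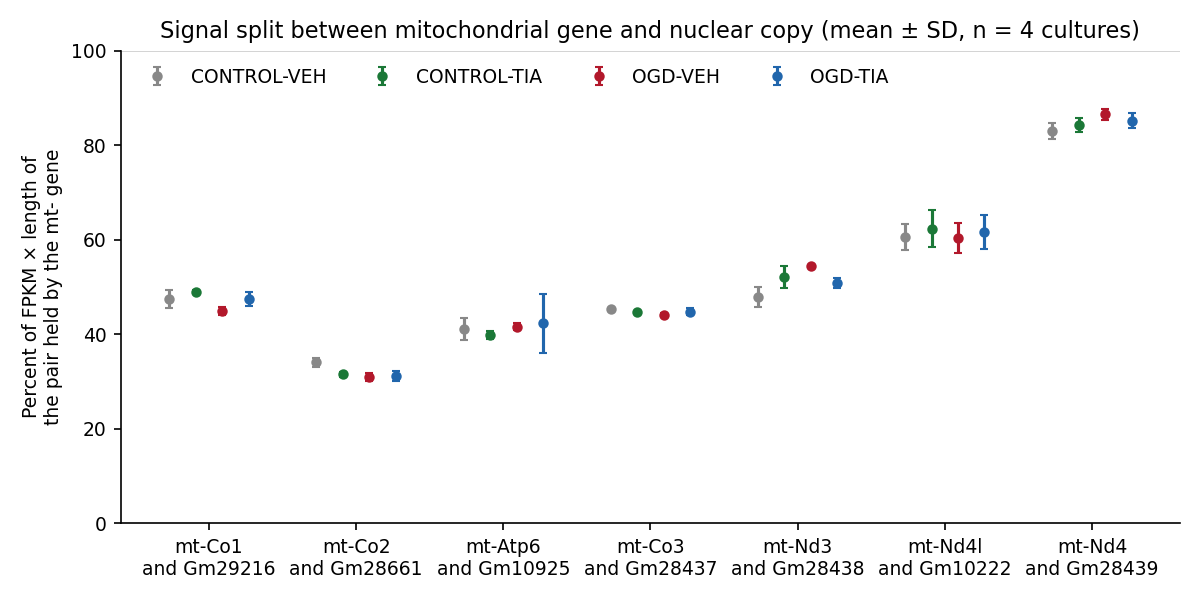
Percent of the length-weighted FPKM of each pair that the file assigned to the mitochondrial gene, by group (points are means and bars SD of 4 cultures, axis from 0 to 100). The mean share over all cultures ranged from 31.9% for mt-Co2 to 84.8% for mt-Nd4; for mt-Nd3 it was 47.8% in CONTROL-VEH and 54.4% in OGD-VEH.

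The share of a pair assigned to the mitochondrial gene was not the same in all groups. For mt-Nd3, a subunit of complex I, it was 47.8% ± 2.09 (SD, n = 4) in CONTROL-VEH, 54.4% ± 0.330 in OGD-VEH, 52.2% ± 2.29 in CONTROL-TIA and 50.8% ± 0.997 in OGD-TIA. For mt-Co2, which carries a copper centre of complex IV, it was 34.0% ± 0.875 in CONTROL-VEH and 31.0% ± 0.868 in OGD-VEH. For mt-Co1, the catalytic subunit of complex IV, it was 47.5% ± 1.88 in CONTROL-VEH and 44.9% ± 0.825 in OGD-VEH. For mt-Co3 it was 45.3% ± 0.316 and 44.1% ± 0.329, and for mt-Nd4, of complex I, 83.1% ± 1.65 and 86.5% ± 1.24. The CONTROL-VEH and OGD-VEH means of these 5 genes differed by more than the SD within either group, whereas those of mt-Atp6 and mt-Nd4l did not.

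As listed, mt-Cytb, the mitochondrially encoded subunit of complex III, was the highest member with 7301 ± 448 FPKM (SD, n = 16). It was followed by mt-Co1 (6832 ± 354), mt-Atp6 of ATP synthase (6551 ± 646) and mt-Nd1 of complex I (5201 ± 496). Next came mt-Co3 (4834 ± 332), mt-Atp8 (4728 ± 365), mt-Co2 (4522 ± 323), mt-Nd2 (4431 ± 458) and mt-Nd4 (4138 ± 235). From mt-Nd1 to mt-Nd4, neighbours differed by less than the larger of their SDs, as did mt-Co1 and mt-Atp6. Lower were mt-Nd5 (2737 ± 147), mt-Nd4l (1514 ± 119) and mt-Nd3 (1027 ± 178), all of complex I. With the copies added, mt-Atp6 came first (15907 FPKM), followed by mt-Co1 (14498), mt-Co2 (14162), mt-Co3 (10815) and mt-Cytb (7301). The order of the most abundant mRNAs therefore depended on where the shared reads were placed.

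mt-Nd6 was by far the lowest mRNA, with 155 ± 42.1 FPKM (SD, n = 16). It is the only mRNA on the minus strand of the listed chromosome and overlaps the end of mt-Nd5 there. mt-Nd5 exceeded it 15.9 ± 1.28-fold in CONTROL-VEH, 18.5 ± 5.75-fold in OGD-VEH, 18.1 ± 3.10-fold in CONTROL-TIA and 22.2 ± 3.62-fold in OGD-TIA (ratio of FPKM, SD, n = 4). The rRNAs mt-Rnr1 and mt-Rnr2 of the small and large mitochondrial ribosomal subunit had 783 ± 124 and 776 ± 125 FPKM. The level of mt-Rnr2 was 0.166 ± 0.0227 of that of its downstream neighbour mt-Nd1 in CONTROL-VEH and 0.149 ± 0.0108 in OGD-VEH. The libraries were made with an mRNA kit, which selects polyadenylated RNA, so rRNA and tRNA values reflect what such a library holds.

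**Figure D2:**
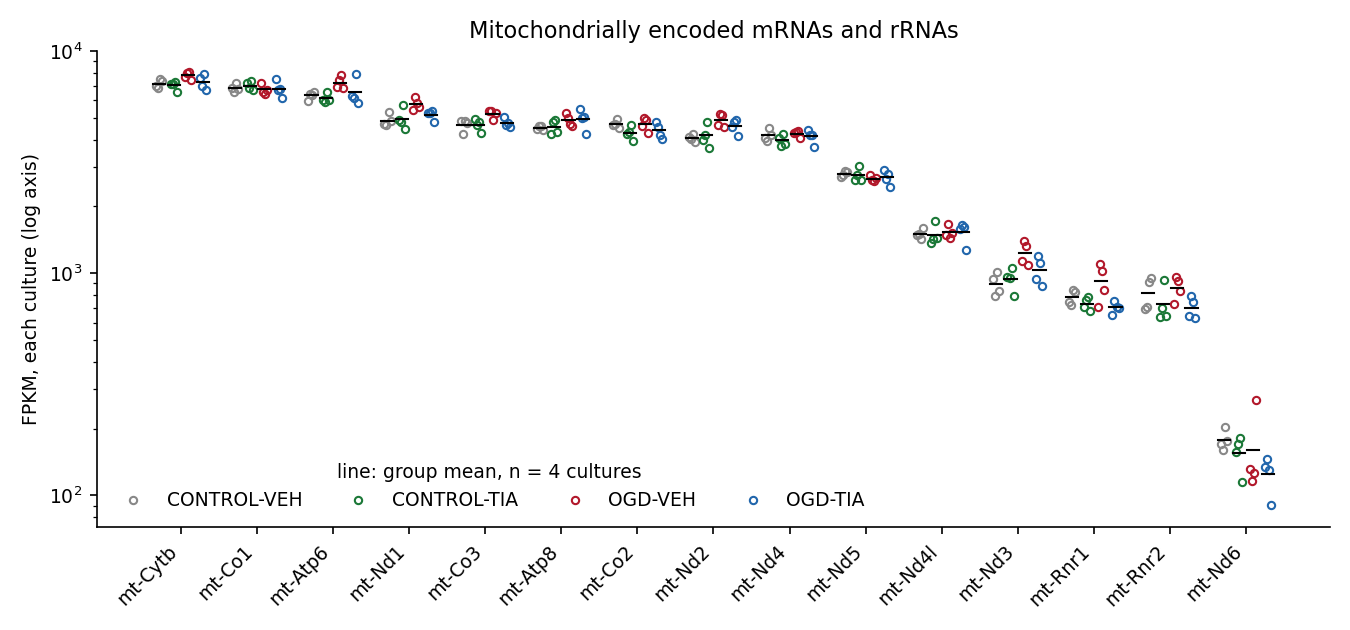
FPKM of the 13 mRNAs and 2 rRNAs in each of the 16 cultures, ordered by mean level (log axis, open circles are cultures, lines are group means of 4). Levels ran from 7301 FPKM for mt-Cytb to 155 for mt-Nd6, and the 4 groups of a gene lay close together on this scale.

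Spread between cultures was small for most mRNAs. The coefficient of variation over all 16 cultures was 5.18% for mt-Co1, 5.37% for mt-Nd5, 5.69% for mt-Nd4 and 6.13% for mt-Cytb. It reached 17.4% for mt-Nd3 and 27.2% for mt-Nd6, and it was 15.8% and 16.1% for the rRNAs. Cultures moved together: culture 7 of CONTROL-TIA lay above the mean of 11 of the 13 mRNAs, whereas cultures 8 of CONTROL-TIA and 16 of OGD-TIA lay below the mean of every one.

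As a share of summed FPKM, the mRNAs as a whole took up a nearly constant part of the transcriptome, but less so when weighted by length. Summed over the 13 genes, the level was 52691 ± 1700 FPKM (SD, n = 4) in CONTROL-VEH, 57048 ± 1667 in OGD-VEH, 52149 ± 3075 in CONTROL-TIA and 53996 ± 3662 in OGD-TIA. As a percentage of the summed FPKM of all genes, the 37 members made up 4.89% ± 0.137 in CONTROL-VEH, 5.03% ± 0.280 in OGD-VEH, 4.95% ± 0.325 in CONTROL-TIA and 4.98% ± 0.335 in OGD-TIA. These means differed by less than the SD within OGD-VEH, CONTROL-TIA or OGD-TIA. The summed FPKM of all genes itself was higher in OGD-VEH (1172950 ± 47566) than in CONTROL-VEH (1112660 ± 33227). Weighted by length and with the copies included, the share was 5.84% ± 0.108 in CONTROL-VEH, 6.29% ± 0.201 in OGD-VEH, 5.88% ± 0.300 in CONTROL-TIA and 5.97% ± 0.316 in OGD-TIA. In OGD-VEH, 3 cultures were between 6.37% and 6.41% and culture 12 was at 5.99%, just under the highest culture of CONTROL-VEH (6.00%), so these groups overlapped.

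The comparison of OGD-VEH with CONTROL-VEH asks what OGD alone did to these transcripts. By padj, mt-Nd1, mt-Nd2 and mt-Nd3 of complex I were higher after OGD, by 18.6%, 19.7% and 38.3%, and none of the members was lower. The other complex I members mt-Nd4, mt-Nd4l, mt-Nd5 and mt-Nd6 did not pass, with log2 fold changes of 0.03, 0.02, -0.07 and -0.23. The changes of mt-Nd1, mt-Nd2 and mt-Nd3 were small, and no member was a differentially expressed gene (DEG). For a DEG, the study asked a log2 fold change beyond 1 or -1 besides padj ≤ 0.05. In limma, 4.08% of the 16376 genes tested were DEGs. 6 members were higher at an unadjusted p under 0.05, against 20.2% of all genes. By padj alone, 3 of the 21 members tested were higher, against 5.00% of all genes, and 0 were lower, against 3.44%. The other 16 members, all tRNAs, had a mean under the minimum of 0.5 FPKM. Fold changes are on the scale of log2(FPKM + 0.1), and padj is the Benjamini-Hochberg adjusted p over all genes tested.

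mt-Nd1 (MT:2751-3707), mt-Nd2 (MT:3914-4951) and mt-Nd3 (MT:9459-9806) are single-exon genes on the plus strand. For mt-Nd1, the CONTROL-VEH cultures 1 to 4 had 4722, 4629, 5296 and 4837 FPKM, and the OGD-VEH cultures 9 to 12 had 5424, 6230, 5867 and 5580. The groups were apart, though culture 3 came close to culture 9. The log2 fold change was 0.25 (95% interval 0.10 to 0.39, padj = 0.0479). For mt-Nd2, the 4 CONTROL-VEH cultures had 4113, 4036, 4236 and 3902 FPKM, and the 4 OGD-VEH cultures 4639, 5195, 5151 and 4542. These groups were again apart, with a log2 fold change of 0.26 (0.13 to 0.39, padj = 0.0424). For mt-Nd3, the CONTROL-VEH cultures had 943, 787, 1011 and 836 FPKM and the OGD-VEH cultures 1133, 1394, 1334 and 1089. The groups did not overlap and the log2 fold change was 0.47 (0.21 to 0.72, padj = 0.0447).

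mt-Nd3 is one of the genes with a nuclear copy, and its change depended on it. The copy Gm28438 had 1009, 937, 1003 and 973 FPKM in CONTROL-VEH and 946, 1199, 1120 and 926 in OGD-VEH, so that these groups overlapped. With its signal added, the log2 fold change of mt-Nd3 was 0.28 (0.06 to 0.50, padj = 0.0826). mt-Nd1 and mt-Nd2 have no such copy.

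mt-Atp6 and mt-Co3 were also apart between the groups, but did not pass the test. mt-Atp6 had 5984, 6408, 6373 and 6531 FPKM in CONTROL-VEH and 6861, 7377, 7772 and 6852 in OGD-VEH, with a log2 fold change of 0.19 (0.07 to 0.31, padj = 0.0583). mt-Co3, a subunit of complex IV, had 4847, 4249, 4855 and 4731 FPKM and 5351, 5387, 4917 and 5292 FPKM, with 0.17 (0.03 to 0.30, padj = 0.0854). In all, 5 of 21 members had groups apart in the upward direction, which held for 12.8% of all genes, and 0 in the downward direction (9.94%). With the copies added, mt-Co3 stood at 0.21 (padj = 0.0518), mt-Atp6 at 0.17 (padj = 0.0779) and mt-Co2 at 0.14 (padj = 0.0849), against 0.00 for mt-Co2 alone.

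The remaining mRNAs had small differences in both directions. The log2 difference was 0.12 for mt-Cytb (padj = 0.112), 0.11 for mt-Atp8 (padj = 0.170), 0.03 for mt-Nd4, 0.02 for mt-Nd4l, -0.02 for mt-Co1 and -0.07 for mt-Nd5. Except for mt-Cytb, each 95% interval included 0, and the intervals of mt-Co1 (-0.13 to 0.09) and mt-Nd5 (-0.18 to 0.03) were narrow. For mt-Nd6 the difference was -0.23 with a wide interval (-0.80 to 0.35), since culture 12 was at 268 FPKM and cultures 9 to 11 between 116 and 132, against 160 to 204 in CONTROL-VEH. The rRNAs were at 0.22 for mt-Rnr1 (-0.10 to 0.53) and 0.09 for mt-Rnr2 (-0.22 to 0.41). The median over the 13 mRNAs was 0.11, beside 0.10 over all genes tested.

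**Figure D3:**
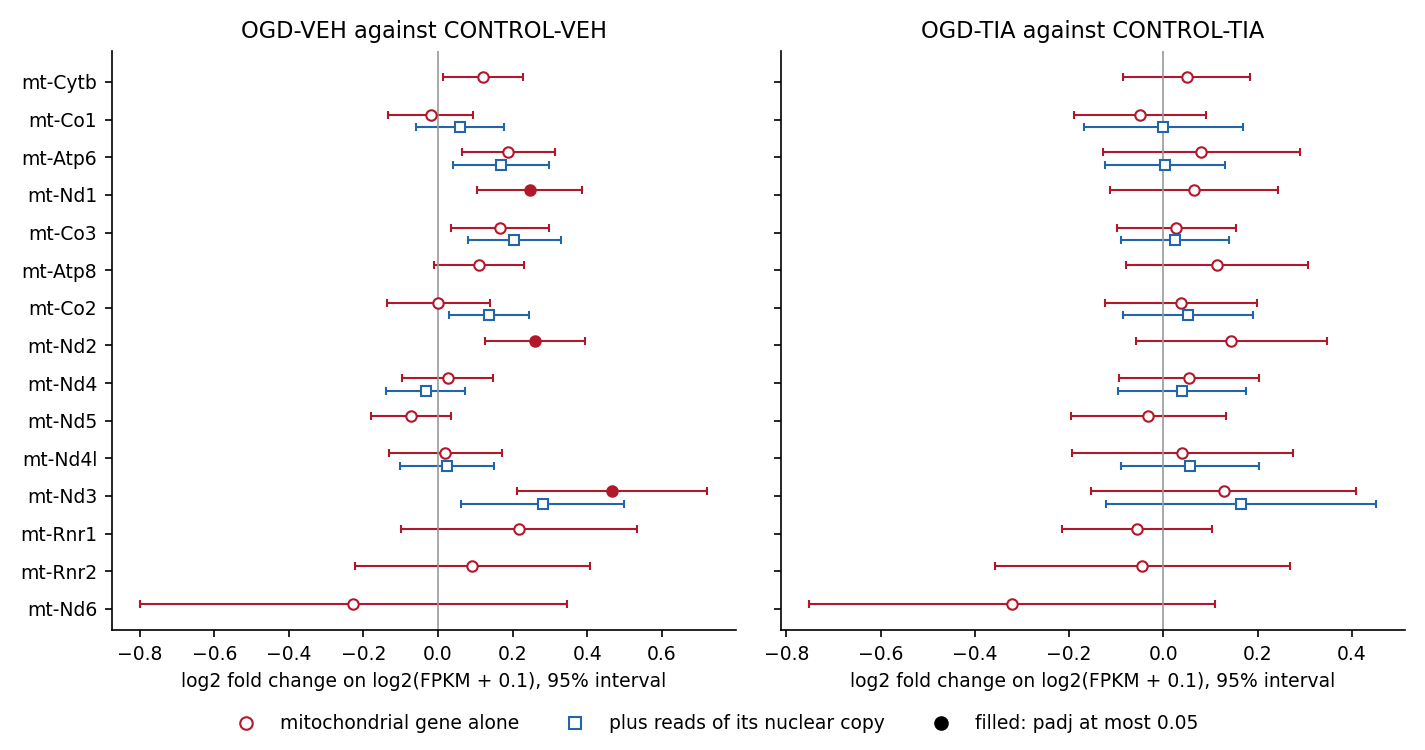
Log2 fold change with 95% interval of each mRNA and rRNA after OGD in vehicle cultures (left) and TIA cultures (right), for the mitochondrial gene alone (circles) and with the signal of its nuclear copy added (squares); filled symbols have a padj of at most 0.05. Filled symbols were mt-Nd1, mt-Nd2 and mt-Nd3 alone in the left panel, and the mt-Nd3 symbol was open once the copy was added.

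That shift of all genes matters for effects of this size. When the libraries were rescaled by median ratios over nuclear genes, the median of all genes came to 0.02, and mt-Nd1, mt-Nd2 and mt-Nd3 were at 0.16, 0.17 and 0.38 (padj = 0.0955, 0.0854 and 0.0571 in limma). No member passed padj on that scale, on which 650 of all 16330 genes tested were higher and 672 lower. The calls also turned on single cultures. Without any 1 of the CONTROL-VEH cultures 1, 2, 3 or 4 or the OGD-VEH cultures 10, 11 or 12, 0 members passed, whereas without culture 9 there were 4, namely mt-Nd1 (0.28, padj = 0.0151), mt-Nd2 (0.28, padj = 0.0125), mt-Nd3 (0.51, padj = 0.0187) and mt-Atp6 (0.21, padj = 0.0226). DEGs among all genes ranged from 1 to 2188 with 1 culture left out, against 668 with all cultures. That is a stricter rule, which no member met in these fits. The share of all genes that passed padj alone in them is not given here, so the member counts have no matching background.

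The same exposure was then compared within the TIA cultures. In OGD-TIA against CONTROL-TIA, 0 of 20 members passed padj in limma, as did 0% of the 16273 genes tested. At an unadjusted p under 0.05 there was 1 member, against 19.5% of all genes. mt-Nd1 had 4906, 4778, 5745 and 4468 FPKM in CONTROL-TIA and 5286, 5265, 5385 and 4805 in OGD-TIA. mt-Nd2 had 3986, 4213, 4812 and 3677 FPKM and 4574, 4794, 4889 and 4133. Culture 7 of CONTROL-TIA was above every OGD-TIA culture in mt-Nd1 and inside their range in mt-Nd2, and culture 16 was the lowest of OGD-TIA. The log2 fold changes were 0.06 (-0.11 to 0.24) for mt-Nd1, 0.14 (-0.06 to 0.35) for mt-Nd2 and 0.13 (-0.15 to 0.41) for mt-Nd3. Without culture 16 they were 0.10, 0.19 and 0.20 (padj = 0.532, 0.277 and 0.395 in limma), and 0 members passed. Over the 13 mRNAs the median was 0.05, beside 0.04 over all genes.

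Whether the OGD effect differed between the arms was tested with the interaction over all 16 cultures. It was -0.18 (-0.40 to 0.04) for mt-Nd1, -0.12 (-0.35 to 0.12) for mt-Nd2 and -0.34 (-0.71 to 0.03) for mt-Nd3, on the log2 scale. In limma, 0 of 21 members passed padj (smallest 0.723) and 0 had an unadjusted p under 0.05, against 6.06% of all genes. With the copy added, mt-Nd3 was at -0.12 (-0.47 to 0.24) and mt-Co3 at -0.18 (unadjusted p = 0.0297, padj = 0.723 in limma). The rRNA mt-Rnr1 had -0.39 without culture 9 (unadjusted p = 0.00838, padj = 0.185 in limma), -0.27 without culture 16 (padj = 0.446) and -0.44 with array quality weights (unadjusted p = 0.00329, padj = 0.0639 in limma). Without culture 9 or 16, mt-Nd1 was at -0.21 or -0.14 and mt-Nd3 at -0.38 or -0.26, and 0 members passed padj. A difference between the arms was therefore not shown for these members.

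With the arms joined, 8 OGD cultures against 8 controls, mt-Nd1, mt-Nd2 and mt-Nd3 were again the members that passed. Their log2 fold changes were 0.16 (0.04 to 0.27, padj = 0.0408), 0.20 (0.09 to 0.32, padj = 0.0139) and 0.30 (0.10 to 0.50, padj = 0.0264). The vehicle cultures are part of this test, so it is not independent of the first. Of all 16342 genes tested, 18.7% were higher and 13.4% lower by padj here, so 3 of 21 members is no larger a share than in the transcriptome. With the copy added, mt-Nd3 was at 0.22 (padj = 0.0471). No member passed padj after median-ratio scaling (mt-Nd2 0.14, padj = 0.0878), whereas 2378 of all 16317 genes tested were higher and 2666 lower. On the scale as deposited and without culture 16, 6 members passed, with mt-Atp6, mt-Atp8 and mt-Cytb in addition. The count was 1 without any of cultures 2, 8, 10 or 11, and 3 without culture 9. By the stricter rule for DEGs, which no member met, all genes gave 525 to 1059 with 1 culture left out, against 779 with all cultures. The share of all genes that passed padj alone in these fits is not given here.

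Changes within the set were examined by dividing each culture by the geometric mean of its 13 mitochondrial mRNAs, a scale chosen after the values had been seen. This scale makes the 13 log2 differences of a comparison sum to 0, so a rise of some members lowers the others. mt-Nd5 was at -0.05 (padj = 0.342) before it with the arms together. On this scale, mt-Nd2 was higher by 0.14 (0.06 to 0.21, padj = 0.0119) and mt-Nd3 by 0.24 (0.08 to 0.39, padj = 0.0281), while mt-Nd5 was lower by -0.11 (-0.19 to -0.04, padj = 0.0237). mt-Nd1 was at 0.09 (padj = 0.0531) and mt-Co1 at -0.10 (padj = 0.0501). Of all 16350 genes tested on this scale, 1765 were higher by padj and 2553 lower with the arms together. With the copies added, mt-Nd2 (0.14, padj = 0.0137) and mt-Nd5 (-0.11, padj = 0.0200) were called and mt-Nd3 was not (0.16, padj = 0.0703). On that version, 1794 of all 16349 genes tested were higher by padj and 2577 lower. mt-Nd2 and mt-Nd5 have no copy at the identity searched. On both versions of this scale, the OGD-VEH and CONTROL-VEH cultures were apart for mt-Nd1 and mt-Nd2, higher after OGD, and for mt-Nd4 and mt-Nd5, lower after OGD. By limma, however, 0 members passed padj in that comparison, and mt-Nd5 was at -0.17 (padj = 0.0545). Without the copies, 563 of all 16318 genes tested were higher by padj and 978 lower there. The share of all genes with groups apart was not determined on either version of this scale. mt-Nd4 was at -0.07 alone and at -0.13 with its copy.

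**Figure D4:**
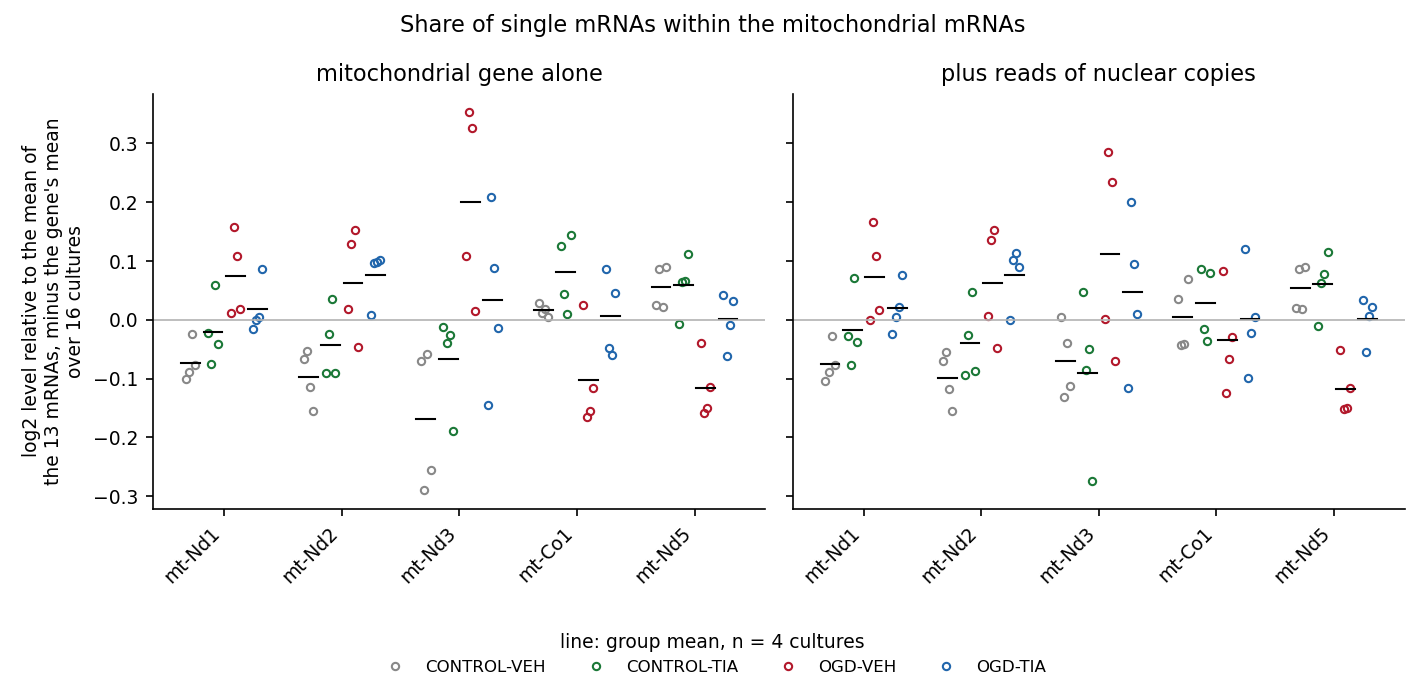
Level of 5 mRNAs relative to the mean of the 13 mitochondrial mRNAs of the same culture (log2, centred on the mean of each gene over 16 cultures), alone (left) and with nuclear copies added (right); circles are cultures and lines group means of 4. mt-Nd1 and mt-Nd2 sat higher and mt-Nd5 lower in OGD-VEH than in CONTROL-VEH in both panels, and the distance for mt-Nd3 and mt-Co1 shrank with the copies.

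TIA itself was examined without OGD and after it. In CONTROL-TIA against CONTROL-VEH, 0 of 20 members and 0% of 16196 genes passed padj in limma. 1 member, mt-Co2, was lower at an unadjusted p under 0.05 (-0.13, -0.26 to -0.01, padj = 0.999), a direction that 2.04% of all genes took. With its copy added it was at -0.02 (-0.14 to 0.09). The differences of the 13 mRNAs lay between -0.20 for mt-Nd6 and 0.07 for mt-Nd3.

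After OGD, the TIA cultures had mostly lower values than the vehicle cultures, but none that passed. In OGD-TIA against OGD-VEH, 0 of 21 members and 0% of 16380 genes passed padj in limma. At an unadjusted p under 0.05, 5 members were lower, against 5.04% of all genes, and 1 was higher, against 2.86%. mt-Rnr1 was at -0.37 (-0.68 to -0.06), mt-Rnr2 at -0.30 (-0.56 to -0.04), mt-Nd1 at -0.15 (-0.29 to -0.02), mt-Co3 at -0.14 (-0.25 to -0.02) and the tRNA mt-Tw at -0.76 (-1.38 to -0.14), each with padj = 0.551. mt-Rnr1 had 708, 1099, 1026 and 843 FPKM in OGD-VEH and 652, 754, 705 and 698 in OGD-TIA. Culture 9 of OGD-VEH thus lay inside the range of the OGD-TIA cultures. For mt-Nd1, all OGD-TIA cultures (at most 5385 FPKM) were below all OGD-VEH cultures (at least 5424), a separation that 2.50% of all genes had in this direction. 3 members passed padj in limma with array quality weights, which give cultures unequal weight: mt-Rnr1 (-0.50, padj = 0.0455), mt-Nd1 (-0.17, padj = 0.0475) and mt-Tm (0.55, padj = 0.0487). With these weights, 567 of all 16380 genes were higher by padj and 965 lower, so the calls were not particular to the members. Without culture 9, mt-Rnr1 was at -0.49 (padj = 0.143), mt-Nd1 at -0.18 (padj = 0.166) and mt-Tm at 0.61 (padj = 0.151). Without culture 16 they were at -0.37, -0.12 and 0.64 (padj = 0.276, 0.285 and 0.274), and 0 members passed in either case.

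Of the 22 tRNA genes, 5 were above 0 in every culture and 2, mt-Tf and mt-Tl2, were listed at 0 in every culture. mt-Tl1 for leucine had a mean of 23.6 FPKM (14.5 to 39.6 over 16 cultures), mt-Tw for tryptophan 19.6 (8.36 to 38.0), mt-Tm for methionine 9.74 (4.26 to 14.7), mt-Ti for isoleucine 5.95 (1.65 to 13.6) and mt-Tg for glycine 2.06 (0.547 to 4.39). mt-Tt for threonine was above 0 in 10 cultures, and the other 16 had means of at most 0.358 FPKM. The 5 detected throughout held at least 88.8% of the tRNA signal in each culture. All are on the plus strand, but so are 8 tRNA genes with means of at most 0.340 FPKM. The 8 tRNA genes on the minus strand had means between 0.0834 and 0.358 FPKM.

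The sequences of the 3 highest and of 1 tRNA at 0 are shown as the genes read on their own strand, because the tRNA genes span from 59 to 75 bases, hardly longer than a read. Capitals mark bases that also belong to the neighbouring gene on the same strand: mt-Tw shares its first bases with the end of mt-Nd2.
mt-Tl1: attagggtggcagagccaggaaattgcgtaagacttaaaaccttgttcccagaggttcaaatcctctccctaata
mt-Tw: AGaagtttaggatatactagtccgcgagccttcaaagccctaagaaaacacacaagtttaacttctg
mt-Tm: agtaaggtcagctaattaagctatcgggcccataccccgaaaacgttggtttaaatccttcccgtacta
mt-Tf: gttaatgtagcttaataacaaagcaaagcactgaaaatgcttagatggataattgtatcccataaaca

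mt-Tm lies between mt-Tq and mt-Nd2. It had 7.28, 7.69, 10.5 and 8.40 FPKM in OGD-VEH and 14.7, 12.8, 12.1 and 14.6 in OGD-TIA. All OGD-TIA cultures were above all OGD-VEH cultures, which held for 1.29% of genes in that direction, with a log2 difference of 0.68 (0.34 to 1.02, unadjusted p = 0.00166, padj = 0.551 in limma). In CONTROL-TIA, however, it ranged from 4.26 to 14.4 FPKM and in CONTROL-VEH from 4.94 to 13.9, so that each control group overlapped both OGD groups. mt-Tw had 23.7, 22.9, 13.8 and 23.5 FPKM in OGD-VEH and 14.2, 10.4, 17.1 and 8.36 in OGD-TIA, and these groups overlapped through culture 11. mt-Tt had between 0.75 and 1.73 FPKM in OGD-VEH and at most 0.731 in OGD-TIA, a separation near the lowest value of any tRNA above 0 (0.384). By the depth estimate, 1 read on a gene of 75 bases stood for 0.522 to 0.678 FPKM. The highest tRNA, mt-Tl1, thus had about 24 to 74 reads per culture. The means of mt-Tm and mt-Tt were lower, so their separations rest on few reads. For mt-Ti, mt-Tg and mt-Tl1, OGD-VEH and CONTROL-VEH overlapped, with log2 differences of -0.99 (-2.17 to 0.20), 0.64 (-0.12 to 1.40) and 0.34 (-0.35 to 1.03).

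**Figure D5:**
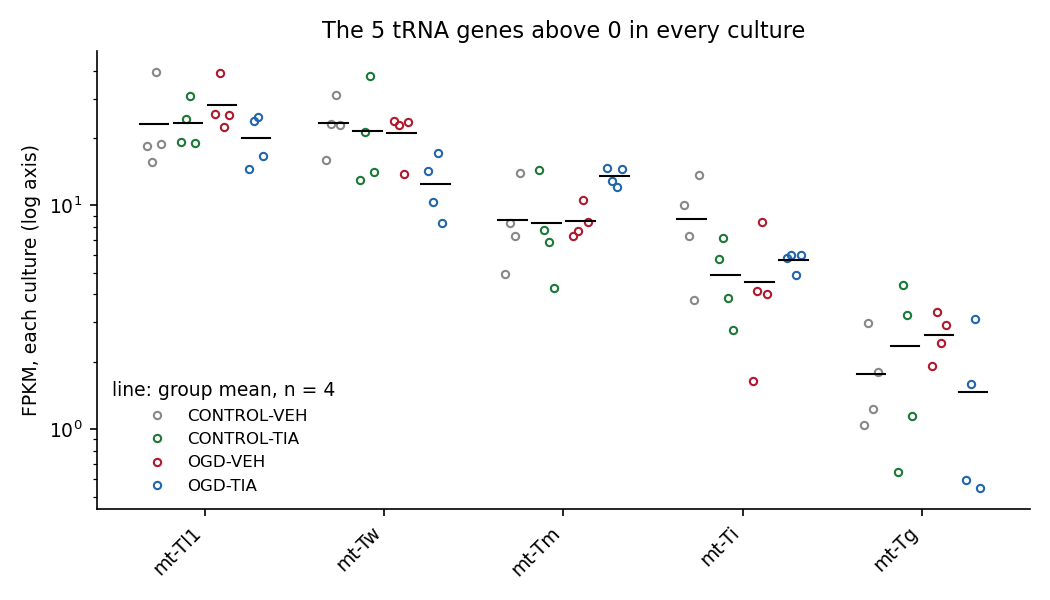
FPKM of the 5 tRNA genes above 0 in every culture (log axis, circles are cultures, lines are group means of 4). mt-Tm sits at 12.1 FPKM or more in all 4 OGD-TIA cultures, whereas the control groups reached 13.9 and 14.4 FPKM at their highest.

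The nuclear genes that make and handle these transcripts were described from lists by role. Among 16 genes of mitochondrial DNA transcription and replication, 3 were higher in OGD-VEH than in CONTROL-VEH by padj and 0 lower, against 5.00% and 3.44% of all genes. The median log2 fold change of the list was 0.35 beside 0.10 over all genes. They were Polg, the catalytic subunit of the mitochondrial DNA polymerase (0.61 ± 0.13 SE, padj = 0.0414), Ssbp1, the single-strand binding protein (0.59 ± 0.15, padj = 0.0463), and Mgme1, a mitochondrial exonuclease (0.84 ± 0.20, padj = 0.0437). Tfam, which packages and activates mitochondrial DNA, was at 0.34 ± 0.13 (padj = 0.106), and the mitochondrial RNA polymerase Polrmt at -0.26 ± 0.19 (padj = 0.350). All 3 act on mitochondrial DNA itself, a role by which the list was drawn up.

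Of 21 genes of RNA processing, stability and decay, 1 passed in this comparison, against the same 5.00% and 3.44%: Trmt10c, part of the enzyme that cuts the 5′ ends of the tRNAs, was higher by 0.68 ± 0.15 (padj = 0.0411), from 5.92 ± 0.721 to 9.54 ± 1.28 FPKM (SD, n = 4). Lrpprc, which stabilises the mitochondrial mRNAs, was at -0.25 ± 0.22 (padj = 0.442), and the list's median was 0.29. None of 7 biogenesis regulators passed, with Ppargc1a at 0.36 ± 0.22 (padj = 0.274). In OGD-TIA against CONTROL-TIA, 0 genes of these 3 lists passed, and the medians were 0.20, 0.11 and 0.14 beside 0.04 over all genes.

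The nuclear genome encodes the other subunits of the same complexes. Of 83 respiratory chain subunits tested, 6 were higher in OGD-VEH by padj and 0 lower, against 5.00% and 3.44% of all genes, with a median of 0.20: Ndufb9 (0.36), Cox6c (0.35), Atp5j2 (0.35), Atp5k (0.32), Cox6a1 (0.30) and Cox6b1 (0.28). Of 78 mitochondrial ribosomal proteins, 5 were higher and 0 lower, against the same shares, with a median of 0.22. These were Mrps6 (1.03, the only DEG of the 5 lists), Mrps35 (0.65), Mrps10 (0.52), Mrps31 (0.50) and Mrpl39 (0.49). The median of the 13 mitochondrial mRNAs, 0.11, was below the medians of all 5 lists.

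With the arms together, 18.7% of all genes were higher and 13.4% lower by padj. It was passed by 7 of the 16 transcription and replication genes: Tfam (0.26), Mterf3 (0.27), Twnk (0.42), Polg (0.33), Ssbp1 (0.47) and Mgme1 (0.70) were higher, and the mitochondrial topoisomerase Top1mt was lower (-0.94). It was passed by 5 of the 21 RNA genes, all higher: Trmt10c (0.59), Hsd17b10 (0.29), Slirp (0.23), Mtpap (0.34) and Pde12 (0.27). Of the respiratory chain subunits, 24 of 82 were higher and Atp5s was lower (-0.38). The higher ones were Ndufa7, Ndufa11, Ndufa12, Ndufa13, Ndufb7, Ndufb8, Ndufb9 and Ndufs7 of complex I, Sdhc and Sdhd of complex II, Uqcrb, Uqcrh and Uqcrq of complex III, Cox6a1, Cox6b1, Cox6c and Cox8a of complex IV, and Atp5e, Atp5f1, Atp5g3, Atp5j, Atp5j2, Atp5k and Atp5l of ATP synthase, by 0.14 to 0.29. Of the ribosomal proteins, 25 of 78 were higher and 0 lower. They were Mrpl1, Mrpl4, Mrpl9, Mrpl13, Mrpl20, Mrpl22, Mrpl28, Mrpl30, Mrpl32, Mrpl33, Mrpl34, Mrpl38, Mrpl39, Mrpl44, Mrpl47, Mrpl52, Mrps2, Mrps6, Mrps14, Mrps16, Mrps28, Mrps30, Mrps31, Mrps34 and Mrps35, by 0.17 to 0.75. Within the vehicle arm, neuronal marker sums were lower and oligodendrocyte lineage sums higher after OGD without overlap, whereas astrocyte sums overlapped. Within the TIA arm, oligodendrocyte lineage sums were higher after OGD, and neuronal and astrocyte sums overlapped. The part of these marker sums in the levels of these lists or of the members was not tested.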

How the data were processed

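The authors aligned 50-base single-end reads of stranded mRNA libraries to GRCm38 with STAR, estimated isoform abundance with eXpress on Ensembl 92, and deposited FPKM values scaled by TMM. Tool versions are not given in the sources used here. Of 135276 lines, 74 had no identifier and were left out. The FPKM of isoforms was summed per gene. Genes were tested if they averaged 0.5 FPKM or more in the cultures compared, on log2(FPKM + 0.1) with limma 3.58.1 (R 4.3.3; empirical Bayes with trend) and Benjamini-Hochberg adjustment over all genes tested. The count model used by the study (DESeq2) was not applied, since FPKM are not counts. Each comparison of 2 groups used its 8 cultures. The interaction and the comparison over both arms used all 16, the latter with drug arm as a term. Totals over members were given without a test. The labels state 18 to 23 M aligned reads per culture. Depth was also estimated as 19.7 to 25.6 M from the most common low value of FPKM times length over single-isoform genes. No read counts were in the file used, so no counting interval is printed. Near-identical copies were searched with blastn 2.17.0 among GENCODE M21 transcripts, in which 99.89% of isoforms were found and all 37 members had the same start and end; sequences are from these transcripts. Copy signal was added as FPKM times copy length over gene length. This alternative and the scaling to mitochondrial mRNAs were chosen after seeing the data. Other alternatives were the pseudocount, the filter on low values, median-ratio scaling, array weights and leaving out each culture. The script was tested on simulated data. All mRNAs and rRNAs, the 6 highest tRNAs, near-identical copies, listed nuclear genes with a padj of at most 0.05 in any comparison and Tfam, Polrmt, Ppargc1a and Lrpprc were named. mt-Tf and mt-Tl2 were named in addition, after their values were seen. Members and lists were chosen with earlier results of these data known.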

Additional observations from a re-analysis of the deposited data

Results flagged for a closer look

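In 7 of 116 groups of 4 cultures examined, 1 culture lay apart from the other cultures of its group by more than Dixon's critical value of 0.829 of the range, where chance gives about 1 in 20 groups. mt-Nd6 was at 268.1 FPKM in culture 12 of OGD-VEH, against 116 to 132 in the others. mt-Tl1 was at 39.6 FPKM in culture 3 of CONTROL-VEH (others 15.7 to 18.9), mt-Tw at 13.8 in culture 11 of OGD-VEH (others 22.9 to 23.7) and mt-Tt at 1.73 in culture 9 of OGD-VEH (others 0.75 to 0.768). The mitochondrially encoded percent of summed FPKM was 4.61 in culture 12 of OGD-VEH (others 5.13 to 5.23). Among the nuclear copies, Gm28661 was at 8762 FPKM in culture 16 of OGD-TIA (others 9919 to 10125) and Gm10222 at 1176 in culture 9 of OGD-VEH (others 939 to 977). The OGD effect differed between the arms in 0 of 21 members by the interaction in limma, with 0 at an unadjusted p under 0.05.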

How the results depend on the processing

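The number of members with a padj of at most 0.05 in OGD-VEH against CONTROL-VEH (3) was 0 without a filter on low values, 0 with median-ratio scaling, 0 relative to the mitochondrial mRNAs with or without copies, 6 with array quality weights and 0 to 4 when 1 culture was left out. With the arms together (3), it was 0 without a filter, 0 with median-ratio scaling, 5 with array weights and 1 to 6 with 1 culture left out. In OGD-TIA against OGD-VEH (0), array weights gave 3. Over all genes, array weights called 3780 higher and 2569 lower by padj of 16376 tested in OGD-VEH. They called 2998 higher and 2047 lower of 16342 with the arms together. In OGD-TIA against OGD-VEH they called 567 higher and 965 lower of 16380. Without a filter, 31 genes were higher and 16 lower of 32586 tested in OGD-VEH. The cause of these differences between settings was not tested. DEGs among all genes in OGD-VEH (668) numbered 36 without a filter, 1931 with array weights, 1393 in a fit of all 16 cultures and 1 to 2188 with 1 culture left out. In OGD-TIA against CONTROL-TIA (0) they numbered 7, 80, 1 and 0 to 17. Without a filter there were 4 DEGs in CONTROL-TIA against CONTROL-VEH, 4 in OGD-TIA against OGD-VEH (407 with array weights, 0 to 2 with 1 culture left out) and 3 in the interaction (0 to 1). With the arms together (779) there were 393 at a pseudocount of 1 and 525 to 1059 with 1 culture left out. Genes with padj of at most 0.05 in OGD-VEH split into 818 higher and 564 lower as deposited and 650 and 672 with median-ratio scaling. Weighted by length, the members' share was 3.73% in CONTROL-VEH, 3.96% in OGD-VEH, 3.75% in CONTROL-TIA and 3.81% in OGD-TIA. The mRNAs alone held 3.59% in CONTROL-VEH on that measure, and 4.74% of summed FPKM without weighting. The members' unweighted percent of summed FPKM was also taken with 1 culture left out. It ranged from 4.83% to 4.93% in CONTROL-VEH, 4.96% to 5.17% in OGD-VEH, 4.82% to 5.04% in CONTROL-TIA and 4.88% to 5.14% in OGD-TIA.

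Small log2 fold changes turned direction. In OGD-VEH, mt-Co1 was at 0.095 and 0.058 with copies added as FPKM and by length. mt-Co2 was at -0.084 with median-ratio scaling and -0.098 relative to the mitochondrial mRNAs. On these scales and on the latter with copies, mt-Nd4l was at -0.066, -0.080 and -0.075, mt-Nd4 at -0.060, -0.073 and -0.13, and mt-Tm at -0.025, -0.038 and -0.038. mt-Nd4 was at -0.059 and -0.033 with copies added as FPKM and by length, and mt-Rnr2 at -0.0065 and -0.0058 relative to the mitochondrial mRNAs without and with copies. In OGD-TIA, mt-Co1 was at 0.023 with copies as FPKM, mt-Co2, mt-Co3 and mt-Nd4l at -0.0081, -0.018 and -0.0049 with median-ratio scaling, and mt-Atp6 and mt-Co3 at -0.025 and -0.0029 relative to the mitochondrial mRNAs with copies. With 1 culture left out, the ranges in OGD-VEH were -0.054 to 0.0056 for mt-Co1, -0.029 to 0.043 for mt-Co2, -0.024 to 0.050 for mt-Nd4l, -0.0033 to 0.063 for mt-Nd4, -0.31 to 0.049 for mt-Tw and -0.17 to 0.32 for mt-Tm. In OGD-TIA they were -0.0071 to 0.078 for mt-Co2, -0.014 to 0.13 for mt-Atp6, -0.013 to 0.056 for mt-Co3, -0.067 to 0.016 for mt-Nd5 and -0.10 to 0.081 for mt-Rnr2. mt-Nd1, mt-Nd2 and mt-Nd3 stayed above 0 in OGD-VEH in all of these alternatives. No paired analysis was possible because the cultures are numbered from 1 to 16 across the groups and share no number.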
